A study of Mus musculus with 8 samples.

Results

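Fcna, which encodes ficolin-A, and 9 marker genes of Kupffer cells were followed in livers of diabetic mice that received an adenovirus for the NAD salvage enzyme NAMPT (AdNAMPT) or for green fluorescent protein (AdGFP). The 10 genes were chosen by symbol. Fcna was taken because it had been called lower in AdNAMPT in an earlier fit of these same libraries, so its difference is given as a description and supports nothing by itself. Clec4f, Marco, Cd5l, Vsig4, Timd4, Adgre1, Cd68, Csf1r and Cd163 were taken as textbook markers, also with earlier results known. All 10 were found among the 41388 features counted, and all 10 passed the filter on low values, which required a CPM (a count scaled to the total of its library) above 1 in 3 or more libraries. In all, 12270 genes did so and were tested.

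All mice carried the db/db mutation, which removes a working leptin receptor and leads to obesity and diabetes. That genotype comes from the sample titles, since the genotype label reads control, and the strain is labelled C57B/6J. Littermates were randomised at 5 weeks of age, given the virus through the tail vein and sampled at 10 weeks, and overexpression is described for the series as lasting 4 to 5 weeks, whereas the study's methods describe shorter times after adenovirus. Each group held 4 mice with 1 whole-liver library per mouse, so both groups share the mutation and an adenovirus, and no lean or uninjected liver was analysed here. The promoter that drove each transgene is not given in the sources used here.

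Libraries held 12006713 to 19879814 counted reads, and albumin took 7.67% to 9.94% of them. Nampt itself lay at 102.3 to 152.7 CPM in AdGFP and 120.5 to 177.8 CPM in AdNAMPT, with a limma log2 fold change of 0.08 (SE 0.15, adjusted p = 0.915), so it does not check the labels, and every direction below is between libraries labelled AdGFP and AdNAMPT. Ribosomal signal moved with the group. Gm42418, a feature that collects ribosomal reads, took 0.996% to 2.25% of reads in AdGFP and 0.200% to 0.233% in AdNAMPT. Without it and the mitochondrial features the log2 fold change of Fcna was -0.81. Leaving features out mainly changes how the other genes are scaled, so the part of ribosomal signal in the Fcna difference was not tested.

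Kupffer cells are the macrophages that live in the liver sinusoids, where they take up bacteria, dying cells and aged red cells from the blood, and they depend on signalling through the CSF1 receptor. Ficolin-A is a secreted lectin with a collagen-like stalk and a fibrinogen-like head. It binds acetylated sugars on microbes and starts the lectin pathway of complement through serine proteases called MASPs, and in mice it is made mainly by macrophages of liver and spleen. In RNA from whole liver, fewer cells of a type and less RNA per cell cannot be told apart.

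Promoters are shown for Fcna, for Vsig4, the other marker whose groups did not overlap in CPM, and for Clec4f, a lectin gene whose expression in mice is largely restricted to Kupffer cells. Each runs 5′ to 3′ on the gene's strand from 250 bases before the RefSeq start to 50 after it (GRCm38.p6). Capitals mark GAGGAA, the purine-rich core to which the macrophage factor PU.1 can bind, searched on both strands. Fcna lies at chr2:25627925-25628224, Vsig4 at chrX:96293389-96293688 and Clec4f at chr6:83656067-83656366, all on the minus strand.
Fcna: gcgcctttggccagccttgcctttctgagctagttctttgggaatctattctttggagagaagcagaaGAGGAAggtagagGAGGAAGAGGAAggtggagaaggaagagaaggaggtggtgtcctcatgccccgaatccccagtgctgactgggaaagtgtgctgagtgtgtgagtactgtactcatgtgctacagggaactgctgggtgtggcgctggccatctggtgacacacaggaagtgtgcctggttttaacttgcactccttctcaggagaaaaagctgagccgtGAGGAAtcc
Vsig4: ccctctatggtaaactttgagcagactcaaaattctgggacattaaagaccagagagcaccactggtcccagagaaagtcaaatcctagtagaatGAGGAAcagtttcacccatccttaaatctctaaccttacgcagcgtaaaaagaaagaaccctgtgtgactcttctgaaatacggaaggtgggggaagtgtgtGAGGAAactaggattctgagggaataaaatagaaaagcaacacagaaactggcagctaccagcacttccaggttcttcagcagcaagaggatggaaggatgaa
Clec4f: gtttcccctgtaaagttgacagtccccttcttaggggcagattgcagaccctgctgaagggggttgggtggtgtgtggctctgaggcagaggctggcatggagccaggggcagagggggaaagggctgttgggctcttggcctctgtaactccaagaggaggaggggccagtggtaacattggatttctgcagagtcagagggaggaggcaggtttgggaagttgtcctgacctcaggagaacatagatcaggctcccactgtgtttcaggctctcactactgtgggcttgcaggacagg

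The Fcna window held 4 matches, all on the gene's strand, whose first bases lay at -182, -169, -163 and 41 with the RefSeq start as 0. The deposited file starts the gene further upstream, so these positions hold for the RefSeq start only. The second and the third match adjoin without overlap. The Vsig4 window held 2 matches, at -155 and -53, and the Clec4f window held 0. Among windows not shown, that of Cd68 held 2, those of Marco and Cd5l 1 each, and those of Timd4 and Cd163 0. Of the 8 members with a promoter in the RefSeq table, 5 held at least 1 match, while 28.3% of all 27025 promoters of that length did and 0.133% of them held at least 4. A match is a run of letters and was not tested for binding.

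The first comparison asks how the level of ficolin-A RNA differed between livers given the vectors. Fcna (ENSMUSG00000026938) covers chr2:25624666-25628030 on the minus strand, with 10 exon blocks and 1374 exonic bases. It lay at 30.5, 24.6, 31.1 and 30.0 CPM in AdGFP mice 1 to 4 and at 19.7, 16.8, 18.4 and 18.4 CPM in AdNAMPT mice 1 to 4. Every AdNAMPT library was below every AdGFP library, and within AdGFP mouse 2 stood lowest. These values rest on 236 to 520 reads per library. The means were 29.0 ± 3.01 CPM (SD, n = 4) and 18.3 ± 1.17 CPM (SD, n = 4), and limma gave a fold of 0.570 (95% interval 0.502 to 0.648), or -0.81 on the log2 scale (SE 0.08, adjusted p = 0.000824). The same call chose the gene, so this adjusted p is no new test. By the rule used here 0.261% of all tested genes were called lower.

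A small spread within groups is part of what made the call of Fcna, so its spread is given as a description. The SD of its log2 level after removal of the group means was 0.107, at the 17.8th percentile of all tested genes, while Cd163 and Marco stood at the 96.9th and 96.2nd percentiles with SDs of 0.643 and 0.595. An antisense gene, Fcnaos, runs over Fcna on the plus strand and shares 90 bases, or 6.55% of the exonic bases of Fcna. Whether counting used strand is not stated, but Fcnaos held only 1 to 10 reads per library and was not tested.

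**Figure D1:**
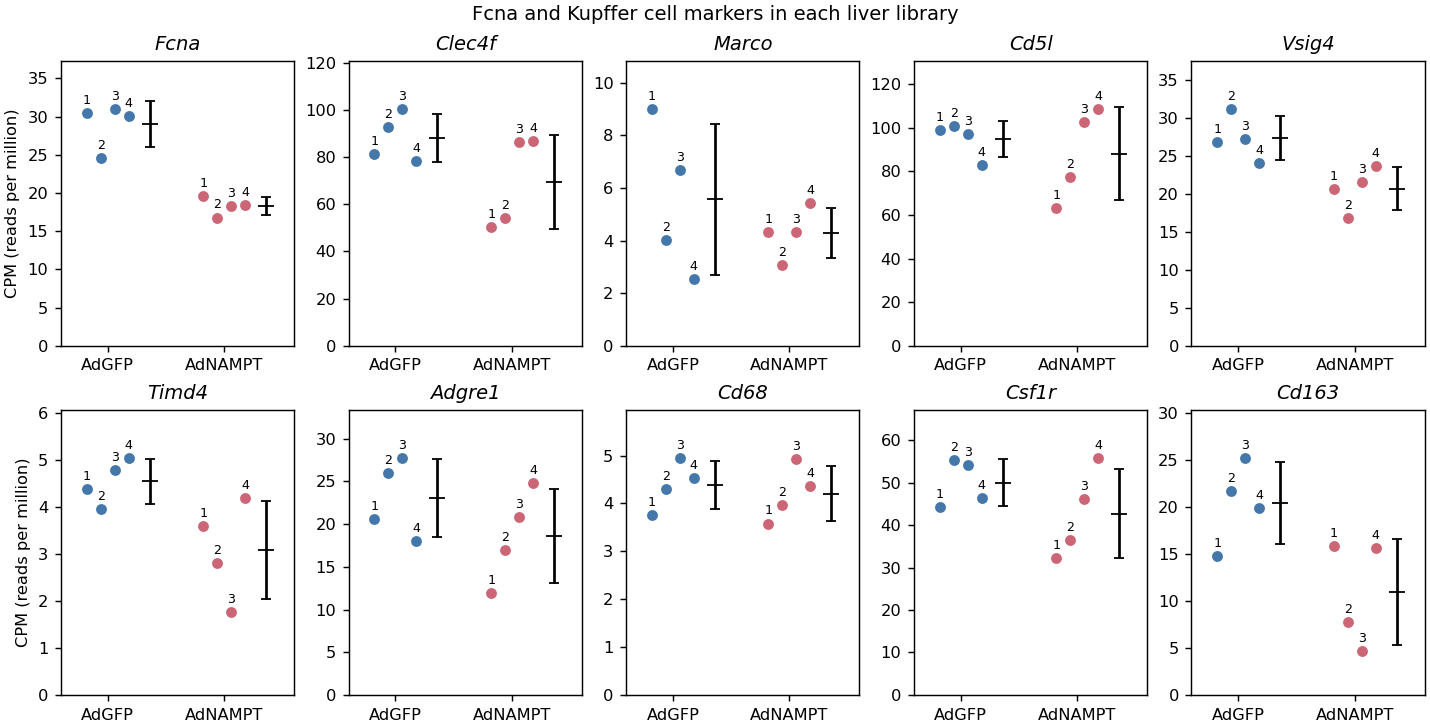
CPM of Fcna and the 9 other markers (y axes, each from 0) in the 4 AdGFP (blue) and 4 AdNAMPT (red) libraries. Numbers name the mouse and black bars give the mean and SD (n = 4). For Fcna and Vsig4 every AdNAMPT point lies below every AdGFP point, and for the other 8 genes the groups overlap in CPM. Over all 12270 tested genes, 105 were lower without overlap in CPM and 903 higher.

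The second comparison asks whether the other Kupffer cell markers differed between the groups as well. None of the 9 passed the threshold in the limma fit or in edgeR's quasi-likelihood test. All 9 had a log2 fold change below 0, from -0.12 to -1.32 with a median of -0.44, while 49.6% of all tested genes lay below 0 and their median was 0.00. Single libraries moved the size, since the median of the 10 members ran from -0.63 without AdNAMPT mouse 4 to -0.24 without AdNAMPT mouse 2. At an unadjusted p under 0.05, 4 of the 9 were lower (Clec4f, Vsig4, Timd4 and Cd163), beside 5.04% of all tested genes. CPM were also scaled by TMM factors, which correct for RNA composition. On that scale the groups did not overlap for Vsig4 and Timd4, as for Fcna, beside 2.70% of all tested genes that were lower without overlap. Those factors were 0.947 to 0.977 in AdGFP and 1.01 to 1.05 in AdNAMPT. In plain CPM, 105 of the 12270 tested genes were lower without overlap and 903 were higher. The genes were taken as markers of the same cell type and were measured in the same 8 livers, so they are not independent of each other.

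**Figure D2:**
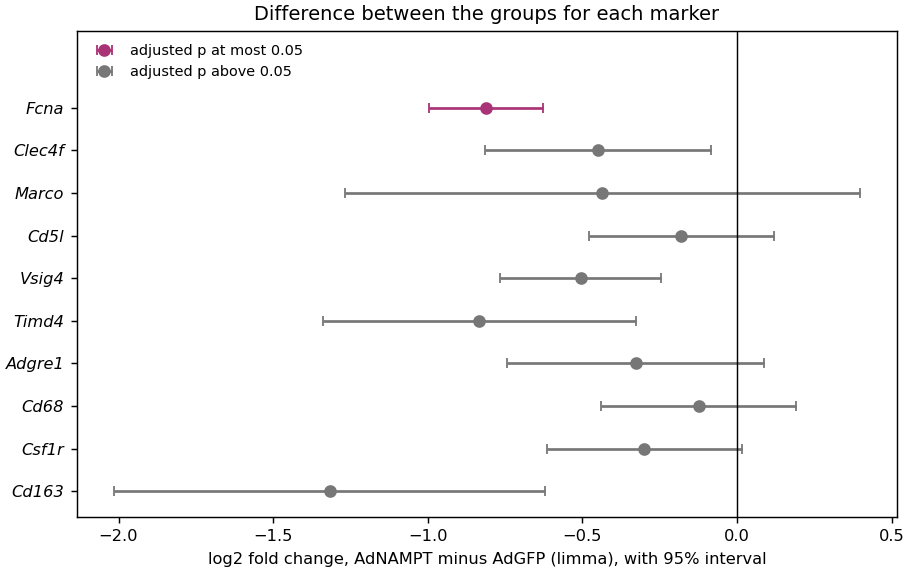
Log2 fold change of each marker (x axis, AdNAMPT minus AdGFP, limma) with its 95% interval. Fcna, at -0.81, is the only gene with an adjusted p of at most 0.05, and all 10 points lie left of 0, with the widest intervals for Marco and Cd163.

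Among receptors for complement and sugars, Vsig4 came closest to the threshold. It encodes CRIg, a receptor on Kupffer cells that captures particles coated with complement C3 fragments. It lay at 26.9, 31.2, 27.2 and 24.0 CPM in AdGFP and at 20.7, 16.9, 21.5 and 23.6 CPM in AdNAMPT. The groups were apart by the narrow gap between AdGFP mouse 4 and AdNAMPT mouse 4. Limma gave a log2 fold change of -0.51 (SE 0.12) with an unadjusted p of 0.00131 and an adjusted p of 0.211. Vsig4 was called lower by the DESeq2 Wald test (adjusted p = 0.0393, with 0.489% of tested genes called lower) and by the edgeR exact test (adjusted p = 0.0436, with 0.407% called lower), and over all 21 alternative settings its adjusted p ran from 0.0393 to 0.443.

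Clec4f encodes a lectin that binds galactose-containing sugars. It lay at 81.3, 92.6, 100.6 and 78.4 CPM in AdGFP and at 50.4, 54.0, 86.6 and 86.8 CPM in AdNAMPT. AdNAMPT mice 1 and 2 were below all AdGFP mice, while AdNAMPT mice 3 and 4 lay within the AdGFP range. The log2 fold change was -0.45 (SE 0.17, adjusted p = 0.453), and as single libraries were left out it ran from -0.66 without AdNAMPT mouse 3 to -0.22 without AdNAMPT mouse 2.

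Among receptors for debris and haemoglobin, Cd163 differed most in size and also varied most. Its product takes up complexes of haemoglobin and haptoglobin. Cd163 lay at 14.8, 21.7, 25.3 and 19.9 CPM in AdGFP and at 15.9, 7.78, 4.68 and 15.6 CPM in AdNAMPT. AdNAMPT mice 2 and 3 were far below every other library, while AdNAMPT mice 1 and 4 were above AdGFP mouse 1. The log2 fold change was -1.32 (SE 0.32), a fold of 0.401 with a 95% interval of 0.248 to 0.651, and the adjusted p was 0.225.

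Timd4 encodes TIM-4, a receptor for phosphatidylserine on dying cells that marks long-lived resident macrophages. It lay at 4.37, 3.95, 4.78 and 5.04 CPM in AdGFP and at 3.58, 2.80, 1.76 and 4.19 CPM in AdNAMPT, on 35 to 80 reads per library. AdNAMPT mouse 3 was lowest, as for Cd163, and in plain CPM AdNAMPT mouse 4 was above AdGFP mouse 2. The log2 fold change was -0.83 (SE 0.23, adjusted p = 0.326).

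Marco, a scavenger receptor for bacteria and particles, ranged from 2.56 to 9.02 CPM in AdGFP and from 3.07 to 5.42 CPM in AdNAMPT, so its AdGFP range held the whole AdNAMPT range. Its log2 fold change of -0.44 (SE 0.38, adjusted p = 0.754) had a 95% interval from -1.27 to 0.40, and it was -0.82 without AdGFP mouse 4 and -0.09 without AdGFP mouse 1. Cd68, a lysosomal glycoprotein of macrophages, had the smallest difference of the 10 and lay at 3.76 to 4.96 CPM in AdGFP and 3.58 to 4.93 CPM in AdNAMPT. Its log2 fold change was -0.12 (SE 0.14, 95% interval -0.44 to 0.19), with -0.22 without AdNAMPT mouse 3 and -0.04 without AdNAMPT mouse 2, and it was not called.

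Cd5l encodes a protein secreted by macrophages, also called AIM, and is a target of LXR nuclear receptors. It ranged from 82.7 to 100.7 CPM in AdGFP and from 63.3 to 108.8 CPM in AdNAMPT, with a log2 fold change of -0.18 (SE 0.14, adjusted p = 0.723). Adgre1, which encodes the F4/80 surface antigen, ranged from 17.98 to 27.8 CPM in AdGFP and from 11.9 to 24.8 CPM in AdNAMPT (log2 fold change -0.33, SE 0.19, adjusted p = 0.631). Csf1r, the receptor for the survival factor CSF1, ranged from 44.2 to 55.4 CPM in AdGFP and from 32.2 to 55.9 CPM in AdNAMPT (log2 fold change -0.30, SE 0.14, adjusted p = 0.541). For all 3 genes the highest AdNAMPT library was mouse 4 and the lowest was mouse 1. As each library was left out, the log2 fold change ran from -0.33 to -0.04 for Cd5l, from -0.50 to -0.20 for Adgre1 and from -0.47 to -0.17 for Csf1r, in each case lowest without AdNAMPT mouse 4. The upper ends were without AdNAMPT mouse 2 for Cd5l and Csf1r and without AdNAMPT mouse 1 for Adgre1. Csf1r shares 871 bases, or 17.8% of its exonic bases, with Hmgxb3 on the opposite strand, which lay at 9.09 to 13.2 CPM in AdGFP and 13.1 to 15.6 CPM in AdNAMPT (log2 fold change 0.29, SE 0.12, adjusted p = 0.492).

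The same libraries recurred at the extremes. On the TMM scale AdNAMPT mouse 4 was the highest of its group for 8 of the 10 genes and AdNAMPT mouse 1 the lowest for 5. In the fit, which weights libraries by their spread, AdNAMPT mouse 1 had the lowest weight at 0.440. Without this library and AdGFP mouse 2 the log2 fold change of Fcna was -0.85, and Fcna remained the 1 member called.

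A further comparison sets Fcna against the other markers within each library, as values with no test because Fcna was chosen by the contrast. The other 9 markers summed to 304.0, 339.9, 348.6 and 281.4 CPM in AdGFP and to 205.9, 219.6, 293.5 and 329.5 CPM in AdNAMPT. These sums overlapped between groups, and AdNAMPT mouse 4 was above 2 of the 4 AdGFP mice, although its Fcna level was as low as in AdNAMPT mouse 3. Fcna as a share of that sum was 9.21% ± 1.51 (SD, n = 4) in AdGFP and 7.26% ± 1.75 (SD, n = 4) in AdNAMPT.

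The log2 ratio of Fcna to the geometric mean of the other 9 was 0.63, 0.27, 0.45 and 0.78 in AdGFP and 0.48, 0.36, 0.32 and -0.11 in AdNAMPT. Its groups overlapped, and the AdNAMPT mean was lower by a log2 difference of -0.27, which ran from -0.36 without AdGFP mouse 2 to -0.15 without AdNAMPT mouse 4. Against single markers, the ratio separated the groups for Cd68, by -0.60, and for none of the other 8, and relative to Cd163 it was higher in AdNAMPT, by 0.38.

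**Figure D3:**
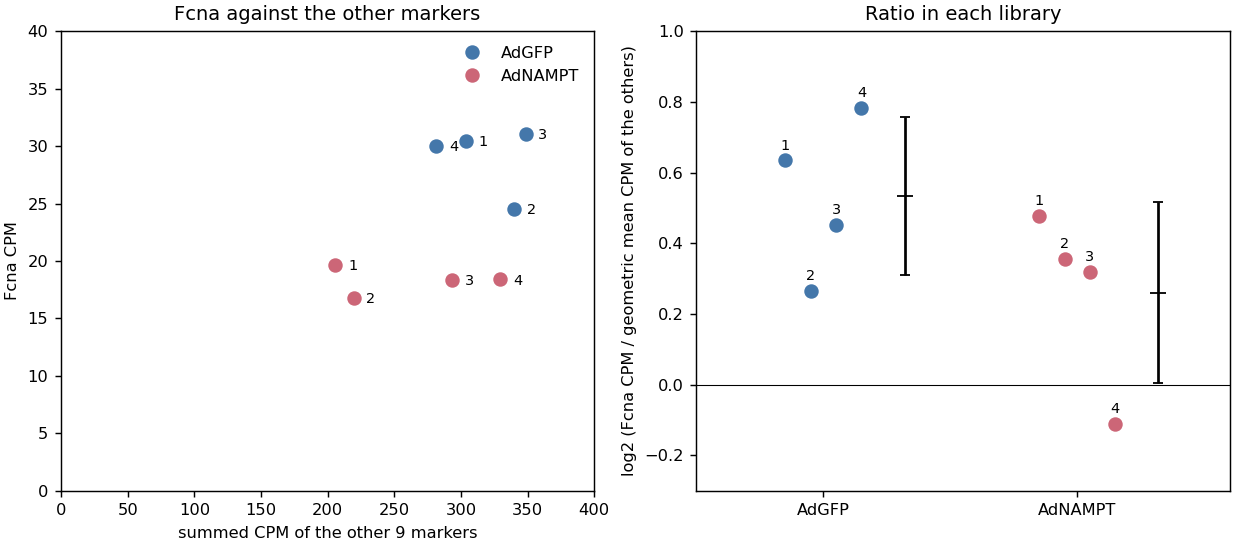
Left, Fcna CPM (y axis) against the summed CPM of the other 9 markers (x axis) in each library, numbered by mouse. Right, log2 ratio of Fcna to the geometric mean of the others, with mean and SD (n = 4). Fcna separates the groups, at 24.6 to 31.1 against 16.8 to 19.7 CPM, whereas the sum and the ratio overlap.

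Levels of different genes were compared per exonic length, as RPKM (CPM per kilobase of exon). In order of geometric mean over the 8 libraries they ran Cd5l, Clec4f, Fcna, Vsig4, Csf1r, Adgre1, Cd68, Cd163, Marco and Timd4. Mean RPKM was 44.9 ± 7.57 (SD, n = 8) for Cd5l, 31.9 ± 7.20 for Clec4f, 17.2 ± 4.45 for Fcna, 16.2 ± 3.002 for Vsig4 and 1.75 ± 0.498 for Timd4. Of the 9 neighbours in that order, 5 pairs kept their order in 8 of 8 libraries (exact paired permutation test, two-sided, p = 0.00781, the smallest it can give, adjusted p = 0.0141 over 9 pairs). The other 4 pairs did not differ beyond their spread. Fcna and Vsig4 had a ratio of 1.05 (p = 0.461 by the same exact test) and changed places in AdNAMPT, where the median of Vsig4 was higher. Cd68 and Cd163 had a ratio of 1.09 (exact p = 0.750), yet Cd68 was the higher in only 2 of 8 libraries, and they changed places in the AdGFP medians and without AdNAMPT mouse 3. Cd163 and Marco (1.31, exact p = 0.258) and Marco and Timd4 (1.42, exact p = 0.0859) were the others.

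**Figure D4:**
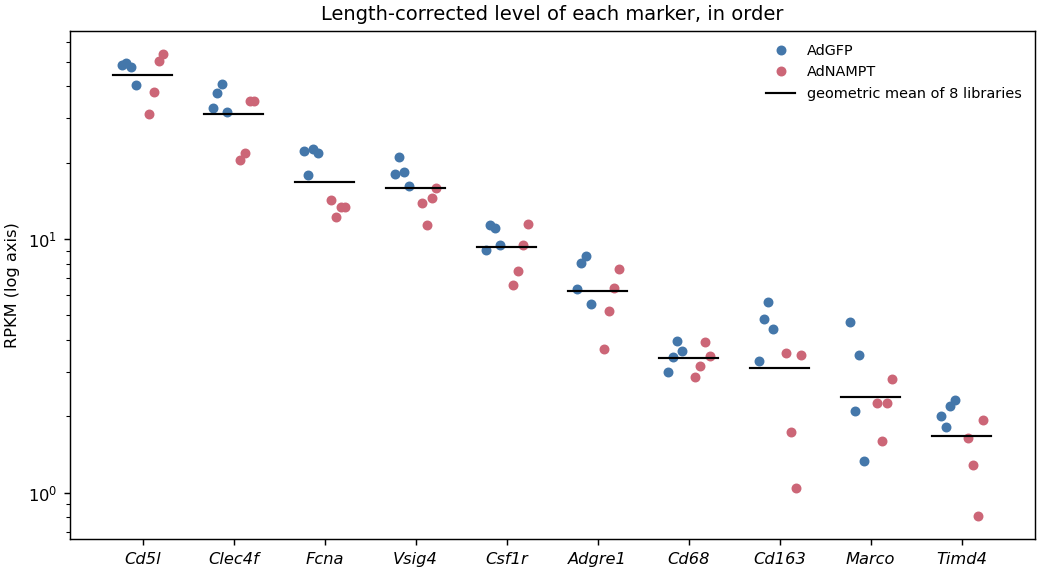
RPKM of each marker (y axis, log scale) in AdGFP (blue) and AdNAMPT (red) libraries, ordered by the geometric mean of 8 libraries (black line). Cd5l and Clec4f stand highest, Fcna and Vsig4 lie side by side, and each of the lowest 4 genes overlaps the next.

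Variation between mice within a group was compared across the markers, on log2 CPM with group means removed, as a description over 8 libraries that also share their depth and scaling. Clec4f, Cd5l, Adgre1 and Csf1r moved together, with Pearson correlations of 0.90 to 0.94, and Cd68 followed them at 0.61 to 0.80. Timd4 and Cd163 correlated with each other at 0.89 and with those 4 genes at -0.24 to 0.10. The largest Timd4 residuals were in AdNAMPT, at -0.72 in mouse 3 (Cd163 -1.07) and 0.51 in mouse 4 (Cd163 0.69). In AdGFP the Timd4 residuals stayed within -0.15 to 0.14. Fcna, whose small spread belongs to the values that chose it, had correlations of -0.30 to 0.41 with the other 9 and a median of -0.16, and the medians of Timd4 and Cd163 with the other 8 markers were -0.04 and 0.01. Among the 36 pairs of the other markers the median was 0.33.

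**Figure D5:**
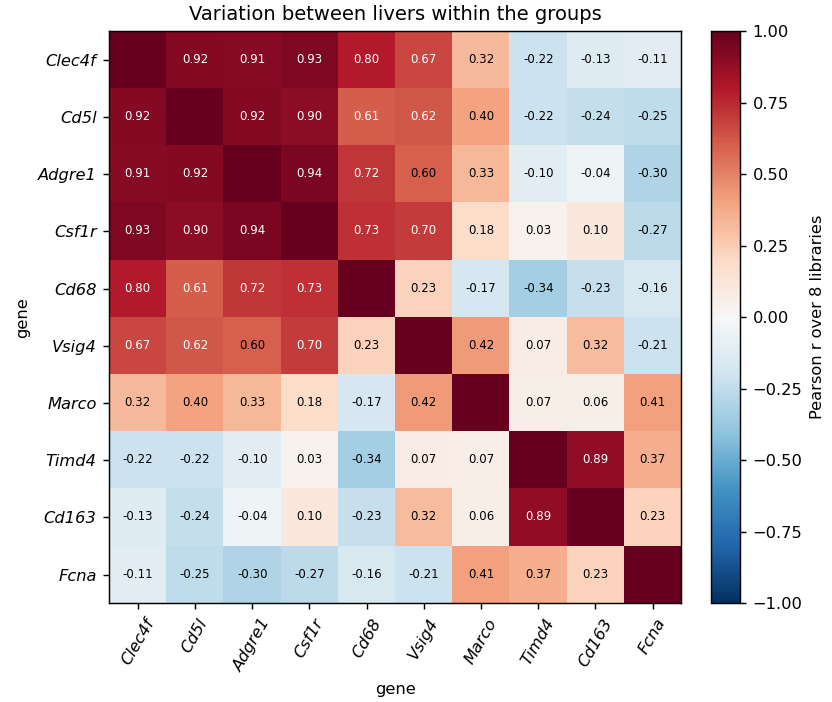
Pearson correlation between markers (both axes) over 8 libraries after removal of the group means, with genes ordered by eye. Clec4f, Cd5l, Adgre1 and Csf1r form a red block at 0.90 to 0.94, Timd4 and Cd163 a pair at 0.89, and the row of Fcna stays between -0.30 and 0.41.

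The genes whose within-group pattern was most like that of Fcna were Rbm19 (Pearson r = 0.986), Stat5b (0.971), Slc2a8 (0.970), Nemp1 (0.967) and Stim1 (0.964), and the most opposed were Tsn (-0.978), Pls3 (-0.968), Sdk1 (-0.965), Tmcc3 (-0.965) and Tmem86a (-0.962). For the mean of the other 9 markers they were Wfdc1 (0.989), Tchp (0.974), Sirt4 (0.957), Mcm8 (0.955) and Cep250 (0.954), against Mast2 (-0.979), Zfp592 (-0.972), Tmem19 (-0.963), Klhl8 (-0.956) and Card10 (-0.952). These genes are extremes among 12270 genes over 8 libraries, and none of the 20 was called between the groups.

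The next question was whether wider sets of macrophage genes differed. Among the listed genes other than Vsig4, the tests of edgeR and DESeq2 made the same calls as limma. Of 15 further genes of Kupffer cell identity, limma called 0, with 3 lower and 1 higher at an unadjusted p under 0.05, beside 5.04% of all tested genes lower and 4.65% higher at that p. Of the 15, 10 had a log2 fold change below 0, beside 49.6% of all tested genes, and the median was -0.10. The smallest p was that of Folr2, a folate receptor of resident macrophages, at 8.41, 7.84, 8.78 and 7.97 CPM in AdGFP and 4.75, 3.89, 3.72 and 9.67 CPM in AdNAMPT. AdNAMPT mouse 4 was the highest of all and the other 3 AdNAMPT mice were below every AdGFP mouse. The log2 fold change was -0.84 (SE 0.24, adjusted p = 0.338), and without AdNAMPT mouse 4 it was -1.16 with an adjusted p of 0.00345. In the other 20 alternative settings no gene of this list was called, so that call rests on leaving out the library that went the other way.

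Of 18 genes of macrophages in general, limma called 0, with 0 below an unadjusted p of 0.05. A log2 fold change below 0 was found for 13 of the 18, beside 49.6% of all tested genes. Their median was -0.07 and ran from -0.23 without AdNAMPT mouse 3 to 0.05 without AdGFP mouse 2 and AdNAMPT mouse 1. Of 14 genes of monocyte-derived and lipid-associated macrophages 9 were tested, and limma called 0. At an unadjusted p under 0.05, 1 was higher, beside 4.65% of all tested genes. Of the 9, 7 lay above 0 and 2 below, whereas 49.6% of all tested genes lay below 0, and the median was 0.46. Without AdNAMPT mouse 4 that median was 0.10. Among these Cd9, a tetraspanin, had the smallest p, at 4.27 ± 0.731 and 6.33 ± 0.902 CPM (log2 fold change 0.48, SE 0.18, adjusted p = 0.453).

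Within the lectin pathway of complement, 12 of 14 genes were tested and Fcna was the 1 called, beside 0.261% of all tested genes called lower. The list includes Fcna itself, and 9 of the 12 lay below 0, beside 49.6% of all tested genes, with a median of -0.16. At an unadjusted p under 0.05, 5 were lower, Fcna among them, and 1 was higher, beside 5.04% and 4.65% of all tested genes. Fcnb, the other ficolin gene of the mouse, had 0 reads in all 8 libraries, which allows up to 0.151 to 0.250 CPM. The other 11 tested genes, which the naming rule did not choose and which are given in full, were not called and had adjusted p from 0.292 to 0.973. The log2 fold changes of the soluble lectins Mbl1, Mbl2, Colec10 and Colec11 were -0.24, -0.17, -0.29 and -0.14, and those of the proteases Masp1 and Masp2 were -0.23 and -0.02. They were 0.70 for C4a, 0.20 for C4b, 0.08 for C2, -0.22 for C3 and -0.07 for the inhibitor Serping1. On the TMM scale the groups did not overlap for Colec10, which was lower in AdNAMPT, and for C4a, which was higher. Over all 12270 tested genes, 2.70% were lower and 257 genes were higher without overlap. C4a varied widely within AdNAMPT, at 117.1 ± 105.6 CPM (SD, n = 4) against 45.5 ± 5.17 CPM in AdGFP. C4a and C4b are near-identical copies whose reads may be split.

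In the axis of CSF1 and niche signals, 12 of 13 genes were tested and 1 was called, beside 0.261% of all tested genes called lower. This list was made with earlier results of these same libraries known, so the call is a description and supports nothing by itself. Tgfb1, the growth factor TGF-beta 1 that liver macrophages need for their identity, lay at 7.31, 14.9, 11.2 and 13.5 CPM in AdGFP and at 3.58, 2.32, 3.42 and 2.42 CPM in AdNAMPT. The groups did not overlap, beside 2.70% of all tested genes that were lower without overlap on the TMM scale. Tgfb1 fell by 2.07 on the log2 scale (SE 0.30, adjusted p = 0.0107). Without AdNAMPT mouse 2 its log2 fold change was -1.93 with an adjusted p of 0.0507. At an unadjusted p under 0.05, 1 gene was lower, Tgfb1 itself, and 3 were higher, beside 5.04% and 4.65% of all tested genes. The 3, named after their values were seen, were the receptor gene Acvrl1 (log2 fold change 0.54, SE 0.16, adjusted p = 0.361), Notch1 (0.20, SE 0.07, adjusted p = 0.412) and Tgfbr2 (0.25, SE 0.10, adjusted p = 0.487). On the TMM scale the groups did not overlap for Acvrl1 and Notch1, beside 257 of all 12270 tested genes that were higher without overlap. The ligand genes Csf1 and Il34, also outside the naming rule, had log2 fold changes of 0.26 (SE 0.14, adjusted p = 0.619) and -0.28 (SE 0.28, adjusted p = 0.792), and the median of the list was 0.18.

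Limma called no gene in the lists of scavenger receptors, clearance, LXR and macrophage activation. These lists are not limited to macrophage genes. Stab1 and Stab2 are also in the endothelial list, and the clearance list holds the haemoglobin genes Hba-a1 and Hbb-bs. Their medians in whole liver therefore do not measure macrophages alone. At an unadjusted p under 0.05, 1 scavenger receptor gene was lower and 1 higher, and 3 clearance genes were lower and 1 higher. Of the LXR list, which holds LXR receptor genes besides targets, 0 were lower and 1 higher. Of the activation genes 0 were below that p either way. Over all tested genes 5.04% were lower and 4.65% higher. The lower genes were Cd163 in both of the first lists, Timd4 and, named after its values were seen, Pros1 (log2 fold change -0.21, adjusted p = 0.506), so Cd163 and Timd4 are counted here again. The higher genes of those lists were Stab1, which is also in the endothelial list, and Mfge8 (0.53, adjusted p = 0.453). The medians were -0.01 for 11 scavenger receptor genes, where Cd163 had the smallest p, and 0.00 for 16 genes of clearance of dead cells and iron. They were 0.08 for 9 genes of the LXR list and 0.08 for 8 activation genes. Il1a was the lowest in p among the LXR list (log2 fold change 0.35, SE 0.16, adjusted p = 0.506), and Arg1, an enzyme mostly of hepatocytes in liver, among the activation list (-0.45, SE 0.21, adjusted p = 0.527). Of the 16 activation genes 8 were too low to test, Tnf, Il6 and Il10 among them.

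Limma made no call among markers of other liver cells. At an unadjusted p under 0.05, 1 gene of sinusoidal endothelium was higher, 2 stellate cell genes were lower and 3 higher, 1 hepatocyte gene was lower and 1 cholangiocyte gene was higher, beside the same shares over all tested genes. The median was 0.07 over 12 genes of sinusoidal endothelium (summed level 399.4 to 471.9 CPM in AdGFP and 439.3 to 500.1 CPM in AdNAMPT), with Stab1 at 0.22 (adjusted p = 0.492). It was -0.05 over 12 stellate cell genes (494.3 to 552.7 and 509.8 to 565.4 CPM), with Rgs5 at -0.40 (adjusted p = 0.361). Named after their values were seen, the other stellate cell genes at an unadjusted p under 0.05 were Ecm1 (-0.30), Col1a1 (0.64), Col1a2 (0.44) and Pdgfrb (0.33). Over 8 hepatocyte genes the median was -0.11, with Tat at -0.56 (adjusted p = 0.318). Blood cells left little signal. Of 8 neutrophil genes 2 were tested (S100a9 at 0.56, adjusted p = 0.648), of 12 genes of T, NK and B cells 1 (Gzma at -0.17, adjusted p = 0.925) and of 6 dendritic cell genes 2 (Clec9a at -0.57, adjusted p = 0.663). Of 5 cholangiocyte genes 4 were tested, with Sox9 at 0.81 (adjusted p = 0.487). The part that cell makeup had in the level of Fcna was not tested.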

How the data were processed

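RNA of 8 whole livers was measured, 4 per group, and groups were taken from the sample titles. The authors aligned single reads to GRCm38 with STAR (version 2.4.0b per the submitters' processing notes) and counted unique reads per gene with featureCounts 1.4.5. Ribosomal depletion is named in the labels and selection of poly-A RNA in the study's methods. Deposited counts are whole reads per gene. Deposited CPM are those counts scaled to the total of the library, and deposited RPKM are CPM per kilobase of exon, both without a composition factor.

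The members and lists were chosen with earlier results of these data known. Features annotated as ribosomal RNA (355, GENCODE M21) were left out. Counts of genes above 1 CPM in at least 3 libraries were scaled by TMM and fitted with limma's voomWithQualityWeights, with group as the only term, and a gene was called at p of 0.05 or less after Benjamini-Hochberg adjustment over all 12270 genes. Intervals are 95% limma intervals. The p-values measure the spread between these mice. Libraries of a group differed beyond sampling noise (chi-square per degree of freedom 12.5 to 95.0). Named were all members, features that share exonic bases with them, per list the called genes or else the gene of smallest p, and the 5 most alike and 5 most opposed genes by correlation (log2 CPM, prior count 2). Genes named outside this rule are marked so in the text. A result that this rule would name is not reported here. Levels between genes were compared by an exact paired permutation test of log2 RPKM. Promoters came from RefSeq (GRCm38.p6) and coordinates of genes from the deposited files.

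The fitting routines were checked on simulated counts. Alternatives were edgeR's quasi-likelihood and exact tests, the DESeq2 Wald test, voom without weights, other scalings and filters, a GC correction, a replicate block, removal of Gm42418 and mitochondrial features, and each library left out. Leaving out AdGFP mouse 2 with AdNAMPT mouse 1 was an alternative chosen after seeing the data. Fits ran in edgeR 4.0.16, limma 3.58.1 and DESeq2 1.42.0 under R 4.3.3. Other steps ran in scipy 1.17.1, pandas 2.3.3, numpy 2.4.6 and matplotlib 3.10.9 under Python 3.11.15. A count of 0 allows up to 3 reads, which covers counting error only.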

Additional observations from a re-analysis of the deposited data

Results flagged for a closer look

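Fcna in AdGFP mouse 2 was at 24.6 CPM, while the other 3 AdGFP libraries lay between 30.0 and 31.1 CPM. The gap to the nearest library was 0.842 of the range of the group, above Dixon's 95% limit for a group of 4. It was the 1 case found among 24 sets of 4 libraries examined, where chance gives about 1.2. The same library had the highest share of reads on Gm42418, at 2.25%, and the part of that share in its Fcna level was not tested.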

How the results depend on the processing

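Over all 21 alternatives, Fcna kept its direction and its call, with a log2 fold change of -0.85 to -0.73. The other 9 members were below 0 in all 21. The number of members called was 2 with the edgeR exact test and 2 with the DESeq2 Wald test, against 1 otherwise, and the number of all genes called was 66 and 75 with those tests against 34. As each library was left out, Fcna ran from -0.85 to -0.78. The same replicate numbers in both groups belong to different mice. Residuals of same-numbered libraries correlated at 0.225, -0.0451, 0.213 and 0.00516. Libraries with different numbers were not compared in this way, so these values cannot settle whether the numbers share a batch. With a replicate block Fcna was at -0.78, 1 member was called and 41 genes were called. The order of levels kept 5 to 6 of 9 neighbours apart without any 1 library. Depth limits Timd4, Cd68 and Marco most, with as few as 35 reads in a library for Timd4 and Marco and 43 for Cd68, so a missed call there is no sign of equal levels.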
